A study of Mus musculus with 12 samples.

Results

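The subject is what still set the kidney apart from control when mice had received both cisplatin and pregnenolone carbonitrile (PCN). The comparison used 6 of the 12 libraries of the series, 3 with cisplatin+PCN and 3 control libraries. Genes were kept where the deposited table listed at least 1 FPKM (reads per kilobase of a gene's length, scaled to each library's size by the authors) in at least 3 of these 6 libraries, which left 12808 of 52636 genes. Of these, 11416 were protein coding. The members nearest the limit were Limk1 and Unc45b inside it and Tacc3 and Syn2 outside it. Limk1 stood at 0.600, 1.40 and 1.05 FPKM in the cisplatin+PCN libraries and 1.0, 0.924 and 0.855 FPKM in the control libraries. Tacc3, just outside, stood at 0.997, 1.37 and 1.09 FPKM in the cisplatin+PCN libraries and 0.587, 0.876 and 0.529 FPKM in the control libraries.

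All mice were male wild-type C57BL/6 animals of 8 weeks. The cisplatin+PCN group received PCN at 40 mg/kg by gavage each day for 4 days, then 1 intraperitoneal dose of cisplatin at 20 mg/kg, then PCN for 3 more days. The cisplatin group received the same cisplatin dose with corn oil, the PCN group received PCN with saline, and the control group received corn oil and saline. Kidneys were taken 4 days after cisplatin. Groups held 6 to 8 animals by the labels, which do not state whether the libraries are separate animals, so p-values measure the spread between libraries, which may be technical. The treatment text at one point lists the cisplatin group among those pretreated with PCN and at another among those given oil, and the groups are used here as the library titles give them.

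Cisplatin enters the cells of the renal tubule through transporters, binds DNA and damages mainly the proximal tubule, the segment that reclaims most filtered solutes. Injured tubule cells lose transport and metabolic transcripts and raise injury, p53 and inflammatory ones. PCN is a man-made steroid and a ligand of the mouse pregnane X receptor (PXR), which Nr1i2 encodes and which controls drug-metabolising genes in liver and gut.

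Depth lay between 18914607 and 26530485 reads in genes per library, as worked back from the FPKM values. The 3 cisplatin+PCN libraries did not lie together. On the first principal component over the tested genes (81.61% of the variance) they stood at 22.04, 39.9 and 29.12, with cisplatin libraries at 53.93, 49.99 and 61.01 and control libraries at -42.86, -41.28 and -42.17. Cisplatin+PCN replicate 1 was thus nearest to control. Among the genes lower than control, that library lay nearest to the control mean in 53.52% of 3122 genes, and among those higher than control in 42.87% of 2960. Markers of the renal tubule were abundant. Umod, which encodes the uromodulin of the thick ascending limb, stood at 1501, 1214 and 1152 FPKM with cisplatin+PCN and 1109, 1387 and 1322 FPKM in control. Adrenal markers were under the expression limit (0 of 12 tested), and 1 of 12 skeletal muscle markers was tested.

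After both drugs, 6082 of 12808 tested genes differed from control (47.5%) by limma's test at an adjusted p under 0.05. Of these, 2960 were higher (23.1% of the tested genes) and 3122 were lower (24.4%), and 1155 passed a 2-fold change of FPKM + 1. The median change was 0.513 (log2) among the genes that rose and -0.511 among those that fell. Between cisplatin alone and control, 8245 genes differed (64.4%; 31.7% higher and 32.7% lower), and between PCN alone and control 0 did (0.0%). Cisplatin+PCN differed from cisplatin in 2072 genes (16.2%; 8.59% higher and 7.59% lower). The 3 cisplatin+PCN values did not overlap the 3 control values in 58.1% of the tested genes. For PCN alone 397 genes had an unadjusted p under 0.05, and limma-voom on the recovered reads also called 0 genes, with 299 at an unadjusted p under 0.05. The split of the calls depended on the scaling, with 59.93% higher by limma-voom (3621 higher and 2421 lower) and 60.55% higher after scaling to total reads (3668 and 2390), against 48.67% as reported. The median over all tested genes was 0.08 and 0.0681 (log2) under those scalings and -0.0057 as reported. Some genes entered the test only through the group where they were high. All 3 control libraries were under 1 FPKM for 231 genes, of which 213 were called higher, and all 3 cisplatin+PCN libraries were under it for 248, of which 225 were called lower.

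The genes that differed were sorted by where cisplatin alone stood. Of the 6082, 1377 (22.6%) had moved back from the cisplatin level toward control by limma's test between cisplatin+PCN and cisplatin, yet still differed from control. Another 4597 (75.6%) did not differ between cisplatin+PCN and cisplatin, and cisplatin had the same call in 4259 of these. A p that misses the threshold does not show that the levels were equal. Among the 2225 higher genes of this kind the median change was 0.488 (log2) with cisplatin+PCN and 0.590 with cisplatin. A further 532 genes differed between cisplatin and control and moved back far enough that no difference from control was called. The remaining 108 lay beyond the cisplatin level. Of these, 4 were on the other side of control from cisplatin, 24 were farther out on the same side, and 80 differed from control although cisplatin alone did not. The comparisons share libraries, so these counts describe the genes and are no test. They moved with single libraries, and without cisplatin+PCN replicate 3 the 1377 became 387 and the 532 became 159.

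**Figure D1:**
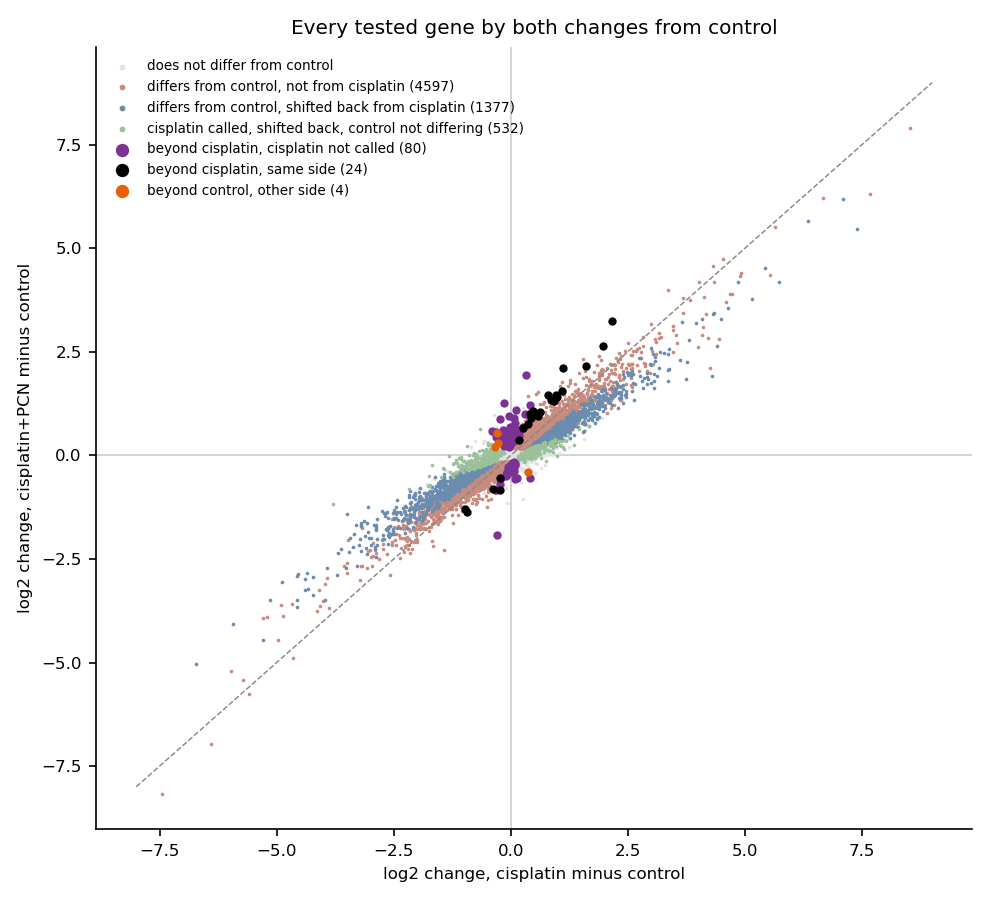
Each point is 1 of the 12808 tested genes, with the log2 change of cisplatin minus control on the x axis and of cisplatin+PCN minus control on the y axis, both on the log2(FPKM + 1) scale. The dashed line marks equal changes; most called genes lie between that line and 0 on the y axis, and the 108 large points are the genes beyond the cisplatin level.

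The largest rises that remained were those of injury and acute-phase genes. Lcn2 (ENSMUSG00000026822, chromosome 2, 32384633 to 32388252), which encodes the iron-carrier-binding protein NGAL, stood at 384, 696 and 384 FPKM in the cisplatin+PCN libraries and 1.18, 0.752 and 0.938 FPKM in the control libraries. It was 7.91 ± 0.21 higher (log2 change, SE; adjusted p = 3.8e-09). Every cisplatin+PCN library was far above every control library, though the largest changes were ranked only among genes whose groups do not overlap. Havcr1 (ENSMUSG00000040405, chromosome 11, 46735080 to 46779578), which encodes the injury receptor KIM-1, stood at 22.8, 321 and 262 FPKM with cisplatin+PCN and 0.81, 0.512 and 0.484 FPKM in control. The change was 6.31 ± 0.76 (adjusted p = 6.7e-05), with replicate 1 far below the other cisplatin+PCN libraries and still above control. Krt20 (ENSMUSG00000035775, chromosome 11, 99428403 to 99438150), a keratin of stressed epithelium, showed the same order of libraries, at 18.8, 143 and 90.2 FPKM with cisplatin+PCN and 0.305, 0.296 and 0.766 FPKM in control (change 5.47 ± 0.54, adjusted p = 1.74e-05). Cdkn1a (ENSMUSG00000023067, chromosome 17, 29090979 to 29100722), the p53 target that encodes the cell-cycle inhibitor p21, stood at 177, 283 and 241 FPKM with cisplatin+PCN and 2.0, 2.13 and 2.23 FPKM in control. Its cisplatin+PCN libraries lay close together, and the change was 6.21 ± 0.14 (adjusted p = 1.77e-09). In a bulk sample, more or fewer cells of a type cannot be told apart from more or less RNA per cell.

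Of 32 tested tubular injury genes, 26 rose, 0 fell and 6 did not pass, against 23.1% higher and 24.4% lower over all tested genes. The list's median change was 1.615 against -0.006 over all tested genes and 2.195 with cisplatin alone. Of the 26, 13 had moved back from the cisplatin level and 13 did not differ from it. Spp1, which encodes osteopontin, rose by 4.41 and stood at 7686, 13146 and 10252 FPKM with cisplatin+PCN and 480.5, 455 and 495 FPKM in control. Sox9, a regulator of tubule repair, rose by 1.97 and Clu, which encodes clusterin, by 2.35. Havcr1, Krt20 and Sox9 were under 1 FPKM in all 3 control libraries and so entered the test only through cisplatin+PCN. Of 231 such genes 213 were called higher. Among the 6 that did not pass, Vim, the mesenchymal intermediate filament, stood at 5.57, 10.4 and 7.58 FPKM with cisplatin+PCN and 8.27, 8.5 and 7.24 FPKM in control, with overlapping groups (adjusted p = 0.813). Tmsb10 was split, at 22.7, 61.1 and 48.9 FPKM with cisplatin+PCN and 23.6, 29.6 and 21.2 FPKM in control (adjusted p = 0.0635), with replicate 1 at the control level. Without cisplatin+PCN replicate 1, 30 injury genes were called higher.

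Targets of p53 stayed high. Of 31 tested, 26 rose and 1 fell, against 23.1% and 24.4% of all tested genes. The list's median was 1.437 with cisplatin+PCN and 1.837 with cisplatin. Of the 27 called, 22 had no called difference from cisplatin and 5 had moved back, against 75.6% and 22.6% of all called genes. Gdf15, which encodes a stress cytokine, stood at 78.8, 187 and 117 FPKM with cisplatin+PCN and 4.7, 5.09 and 5.38 FPKM in control, a change of 4.32 ± 0.24. Bax, a pore-forming inducer of apoptosis, rose by 1.36 ± 0.07, with 45.7, 55.8 and 55.1 FPKM in the cisplatin+PCN libraries and 19.1, 20.1 and 19.5 FPKM in control. Btg2, an antiproliferative gene, rose by 3.55 and had moved back from cisplatin (4.64). Only 12 of 32 cell-cycle genes passed the expression limit. Against 23.1% higher and 24.4% lower over all tested genes, 5 of these 12 were higher and 2 lower. Without cisplatin+PCN replicate 2, 3 were higher, and without its replicate 1 or 3 or control replicate 3, 1 was lower. Rrm2, a subunit of ribonucleotide reductase, stood at 2.0, 5.15 and 3.51 FPKM with cisplatin+PCN and 1.62, 1.47 and 1.5 FPKM in control (adjusted p = 0.0157, and 0.0573 without cisplatin+PCN replicate 2). Ccnd1, which encodes cyclin D1, stood at 11.6, 27.3 and 13.9 FPKM with cisplatin+PCN and 29, 34.3 and 37.1 FPKM in control (adjusted p = 0.0174, and 0.0617 without cisplatin+PCN replicate 1, 0.0609 without its replicate 3 or 0.0576 without control replicate 3).

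**Figure D2:**
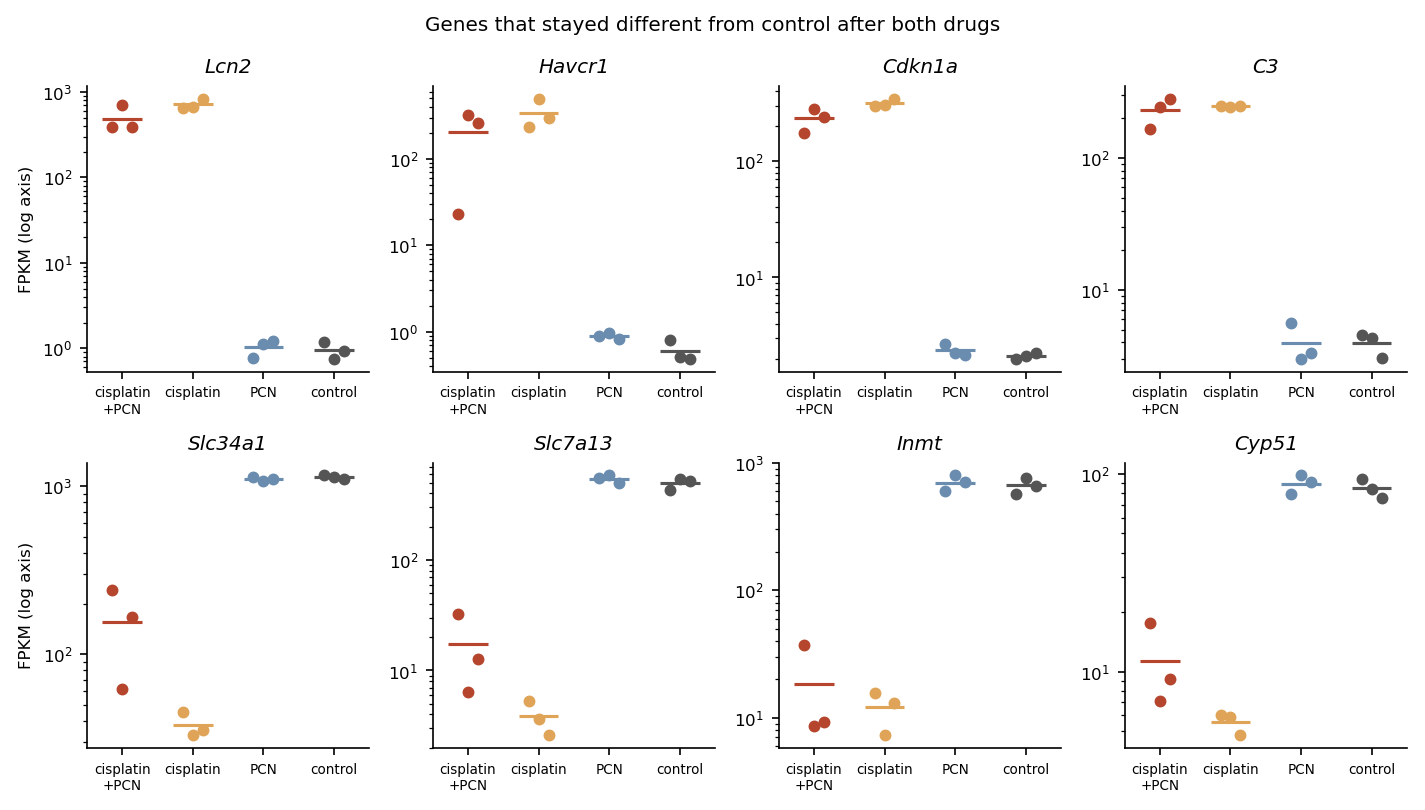
FPKM on a log axis for 8 genes in each of the 12 libraries, with points for libraries and a line at each group's mean. In every panel the 3 cisplatin+PCN points lie clear of the 3 control points. For Havcr1, Cdkn1a, C3, Slc34a1, Slc7a13, Inmt and Cyp51 cisplatin+PCN replicate 1 (the leftmost point) is the one nearest to control. For Lcn2 its replicates 1 and 3 stand level. Except for Slc34a1 and Cyp51, the genes were drawn from those whose groups do not overlap, so this gap was fixed beforehand. Of all tested genes 58.1% do not overlap.

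Many proximal tubule genes stayed low, to be read against 24.4% lower and 23.1% higher over all tested genes. Of 41 transporters and endocytic receptors of this segment, all tested, 26 were lower, 5 higher and 10 did not pass. The median was -0.971 with cisplatin+PCN and -1.735 with cisplatin. Slc34a1 (ENSMUSG00000021490, chromosome 13, 55398187 to 55415592), the main phosphate transporter of the segment, stood at 239, 62.1 and 166 FPKM with cisplatin+PCN and 1156, 1127 and 1100.2 FPKM in control, a change of -3.05 ± 0.36 (adjusted p = 6.03e-05). Slc7a13 (ENSMUSG00000041052, chromosome 4, 19818725 to 19842218), an amino acid transporter of the late proximal tubule, stood at 32.4, 6.4 and 12.8 FPKM with cisplatin+PCN and 434, 538 and 515 FPKM in control (-5.04 ± 0.42, adjusted p = 4.82e-06). Both had moved back from cisplatin, where the changes were -4.88 and -6.71. In both genes replicate 1 was the highest and replicate 2 the lowest of the cisplatin+PCN libraries. The organic anion transporters Slc22a7 (-3.64) and Slc22a28 (-5.21) were lower and did not differ from cisplatin. Lrp2, which encodes the endocytic receptor megalin, stood at 37, 23.3 and 31.8 FPKM with cisplatin+PCN and 119, 118 and 132 FPKM in control, a change of -1.99 ± 0.16.

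Enzymes of the same segment were lower in 25 of 38 cases and higher in 3, against 24.4% and 23.1% of all tested genes. The median of these enzymes was -1.317 with cisplatin+PCN and -1.994 with cisplatin. Inmt (ENSMUSG00000003477, chromosome 6, 55170626 to 55175043), a methyltransferase, stood at 37, 8.67 and 9.21 FPKM with cisplatin+PCN and 573, 759 and 659.6 FPKM in control (-5.41 ± 0.45, adjusted p = 4.75e-06). Gatm, which makes the creatine precursor guanidinoacetate, stood at 14.5, 8.76 and 13.8 FPKM with cisplatin+PCN and 350.2, 256 and 262 FPKM in control (-4.45 ± 0.21). Miox, which breaks down inositol, stood at 142, 28 and 108 FPKM with cisplatin+PCN and 1227, 1154 and 1096 FPKM in control (-3.92 ± 0.48). All cisplatin+PCN values of these genes were below all control values, which the ranking of the largest falls required. Nat8f6 (-4.06) and Ugt2b37 (-3.91) were also among the lowest, but both have close relatives with which reads may be shared. By symbol, 14 of 19 tested Slc22 genes, the organic ion transporter family, were lower and 1 was higher.

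Genes of the segments downstream were lower too, where 24.4% of all tested genes were lower and 23.1% higher. In the thick ascending limb 10 of 16 genes were lower and 1 higher (median -0.724 with cisplatin+PCN, -1.369 with cisplatin), and 9 of the 11 had moved back from cisplatin. Egf, which this segment makes and sheds, stood at 33.2, 10.6 and 17.8 FPKM with cisplatin+PCN and 136, 170.2 and 159 FPKM in control (-2.99 ± 0.31, adjusted p = 2.13e-05). Umod, given above, did not pass (change 0.02 ± 0.17, adjusted p = 0.95), and its sign turned in 4 of the alternatives. In the distal convoluted and connecting tubule 11 of 18 genes were lower and 0 higher. Pvalb, a calcium-binding protein of the early distal convoluted tubule, stood at 0.42, 0.0755 and 0.19 FPKM with cisplatin+PCN and 20.8, 13 and 11.5 FPKM in control (-3.68 ± 0.18), and did not differ from cisplatin. Kl, which encodes the FGF23 co-receptor Klotho, stood at 20.9, 12.7 and 16.2 FPKM with cisplatin+PCN and 88.7, 78.2 and 78.8 FPKM in control (-2.26 ± 0.17). Intercalated cell genes were lower in 9 of 16 cases and higher in 1 (median -0.537), including the kidney anion exchanger Slc4a1 (-1.5) and the carbonic anhydrase Car12 (-1.44).

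Of 14 principal cell genes of the collecting duct 5 were higher and 1 was lower (median 0.088 with cisplatin+PCN and -0.174 with cisplatin). Scnn1b, a subunit of the epithelial sodium channel, stood at 24.6, 22.9 and 22.6 FPKM with cisplatin+PCN and 17.2, 16.3 and 13.6 FPKM in control (0.55 ± 0.11, adjusted p = 0.00239). Cisplatin alone gave 0.18 and was not called, and this sorting was lost in 12 alternatives. Podocyte genes had 3 higher and 4 lower of 13 (2 lower after scaling to total reads, or without cisplatin+PCN replicate 1 or control replicate 2), and endothelial genes 3 higher and 5 lower of 17. Over all tested genes 23.1% were higher and 24.4% lower.

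**Figure D3:**
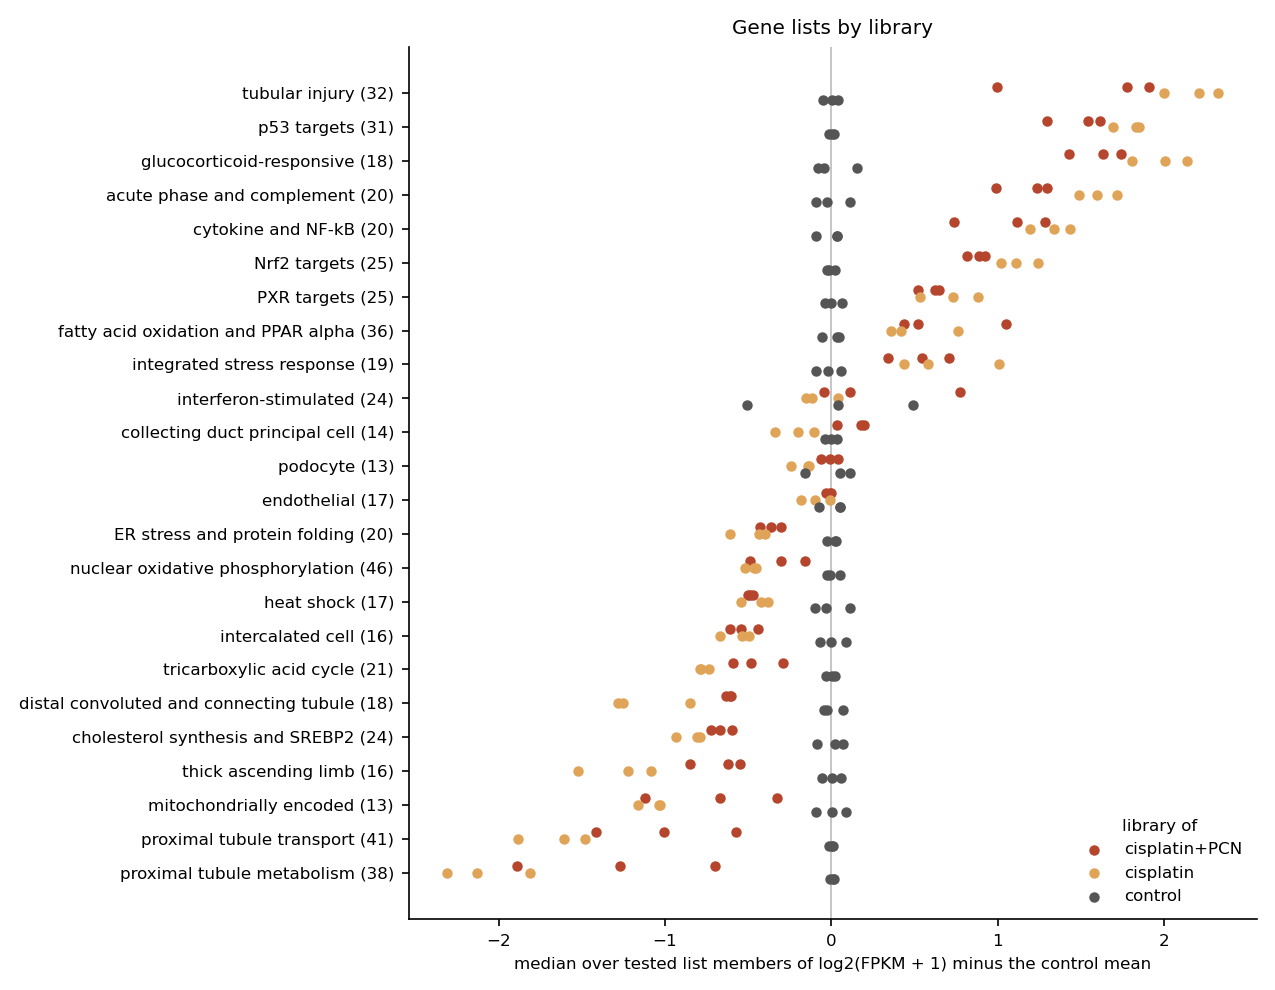
For 24 of the 40 gene lists, the median over tested members (number in brackets) of log2(FPKM + 1) minus the control mean, in each library of cisplatin+PCN, cisplatin and control. Tubular injury stands at 0.993, 1.906 and 1.779 in the cisplatin+PCN libraries and proximal tubule transport at -0.571, -1.413 and -1.004, in both cases with replicate 1 nearest to 0, whereas heat shock stands at -0.473, -0.502 and -0.486 with cisplatin+PCN and -0.380, -0.422 and -0.541 with cisplatin.

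Genes for protein folding in the endoplasmic reticulum stayed low. Chaperones of this compartment are induced by the transcription factors ATF6 and XBP1 through promoter elements built around a CCAAT box. Of 20 listed genes 11 were lower, 2 higher and 7 did not pass, against 24.4% lower and 23.1% higher over all tested genes. The list's median was -0.350 against -0.006 over all genes. Of the 11 that fell 0 had moved back from cisplatin, where the list's median was -0.495. The median with PCN alone was -0.254, with 0 genes called. Hspa5 (ENSMUSG00000026864, chromosome 2, 34771970 to 34777547), which encodes the chaperone BiP, stood at 106, 115 and 103 FPKM with cisplatin+PCN and 138, 149 and 152 FPKM in control (-0.43 ± 0.07, adjusted p = 0.000768). With PCN alone it stood at 116, 112 and 104 FPKM. Calr, the calcium-binding chaperone calreticulin, stood at 133, 137 and 139.9 FPKM with cisplatin+PCN and 219, 202 and 209.6 FPKM in control (-0.62 ± 0.13). Hsp90b1, the chaperone GRP94, stood at 61.4, 64.2 and 60.0 FPKM with cisplatin+PCN and 102, 88.9 and 99.9 FPKM in control (-0.64 ± 0.10). The groups did not overlap in any of the 3. The higher members were Xbp1 itself (0.83) and Ppp1r15a (1.21), which reverses the block on translation.

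The 250 bases before the start of 3 of these genes are shown because the members moved together, with each CCAAT box, on either strand (CCAAT or ATTGG), in capitals. The windows are RefSeq's on GRCm38.p6, printed in the gene's direction.
Hspa5 (chr2:34771840-34772089, plus strand): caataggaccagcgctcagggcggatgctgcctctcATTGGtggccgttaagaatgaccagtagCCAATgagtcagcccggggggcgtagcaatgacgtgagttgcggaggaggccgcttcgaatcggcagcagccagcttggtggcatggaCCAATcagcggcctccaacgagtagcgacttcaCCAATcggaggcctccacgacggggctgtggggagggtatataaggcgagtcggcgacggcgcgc
Calr (chr8:84846932-84847181, minus strand): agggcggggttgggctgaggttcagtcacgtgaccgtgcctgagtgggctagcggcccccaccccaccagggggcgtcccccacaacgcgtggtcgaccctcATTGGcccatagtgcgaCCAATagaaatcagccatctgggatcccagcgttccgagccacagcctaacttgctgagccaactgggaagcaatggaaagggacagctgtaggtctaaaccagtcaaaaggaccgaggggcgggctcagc
Hsp90b1 (chr10:86705445-86705694, minus strand): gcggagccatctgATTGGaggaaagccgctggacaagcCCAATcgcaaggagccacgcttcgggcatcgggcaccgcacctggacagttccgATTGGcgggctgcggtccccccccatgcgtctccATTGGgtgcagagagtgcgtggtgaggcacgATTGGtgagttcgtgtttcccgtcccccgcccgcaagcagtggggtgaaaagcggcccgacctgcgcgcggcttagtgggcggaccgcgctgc
A CCAAT box was in 11 of the 11 windows of members that fell and in 16 of the 18 windows of all tested members. It was in 35.88% of the 9206 windows of tested genes. The box was thus common in the list whether or not a member fell. The longer element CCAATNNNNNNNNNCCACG, which contains a CCAAT box, was in 7 of the 11, in 7 of the 18 and in 0.15% of tested genes, searched on both strands. In these 3 genes it was found 1, 1 and 2 times. A match describes the letters only.

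Heat shock genes of the cytosol and mitochondria also stayed low, with 10 of 17 lower and 3 higher, against 24.4% and 23.1% of all tested genes. The list's median was -0.435 with cisplatin+PCN, -0.480 with cisplatin and -0.229 with PCN alone. Hsph1, a cytosolic chaperone of the HSP110 family, stood at 6.29, 9.16 and 8.15 FPKM with cisplatin+PCN and 32.1, 27.7 and 26.9 FPKM in control (-1.76 ± 0.18, adjusted p = 2.26e-05). Hsp90ab1, the constitutive cytosolic HSP90, stood at 266, 249.7 and 245 FPKM with cisplatin+PCN, 359, 295 and 314 FPKM with cisplatin and 407, 372 and 333 FPKM in control. It was -0.54 ± 0.10 against control, a call that cisplatin alone did not have, and this sorting was lost in 11 alternatives. The small heat shock genes went the other way, Hspb1 by 1.91 and Hspb8 by 1.34.

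Cholesterol synthesis was the lipid pathway that stayed lowest. The transcription factor SREBP2 drives its enzymes together, with NF-Y at CCAAT boxes. Of 24 tested genes 17 were lower, 1 higher and 6 did not pass, against 24.4% lower and 23.1% higher over all tested genes. The list's median was -0.631 with cisplatin+PCN and -0.820 with cisplatin. Cyp51 (ENSMUSG00000001467, chromosome 5, 4081145 to 4104746), the lanosterol demethylase, stood at 17.6, 7.12 and 9.15 FPKM with cisplatin+PCN and 94.8, 84.3 and 75.7 FPKM in control (-2.89 ± 0.24, adjusted p = 5.1e-06). Idi1, the isopentenyl diphosphate isomerase, stood at 2.38, 2.73 and 3.05 FPKM with cisplatin+PCN and 19.6, 12 and 13.9 FPKM in control (-2.1 ± 0.18). Mvd, the mevalonate diphosphate decarboxylase, stood at 15.1, 11.4 and 13.6 FPKM with cisplatin+PCN and 34.8, 33.8 and 31.8 FPKM in control (-1.27 ± 0.11), and Hmgcs1, the cytosolic HMG-CoA synthase, changed by -1.28 ± 0.17. Without cisplatin+PCN replicate 1, 21 of the list were called lower.

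The 250 bases before the start are shown for 3 of these enzymes, again with each CCAAT box (CCAAT or ATTGG) in capitals, from the same RefSeq windows.
Cyp51 (chr5:4104698-4104947, minus strand): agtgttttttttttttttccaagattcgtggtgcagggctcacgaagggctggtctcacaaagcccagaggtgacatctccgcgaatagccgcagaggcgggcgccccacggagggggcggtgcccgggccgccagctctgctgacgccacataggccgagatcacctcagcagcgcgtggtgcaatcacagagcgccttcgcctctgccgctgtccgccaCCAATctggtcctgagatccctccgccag
Mvd (chr8:122443423-122443672, minus strand): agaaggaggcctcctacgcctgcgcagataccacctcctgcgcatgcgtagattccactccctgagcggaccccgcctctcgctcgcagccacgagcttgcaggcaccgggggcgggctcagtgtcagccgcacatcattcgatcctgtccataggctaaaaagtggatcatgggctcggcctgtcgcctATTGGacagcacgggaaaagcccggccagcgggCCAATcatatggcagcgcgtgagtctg
Hmgcs1 (chr13:119690101-119690350, plus strand): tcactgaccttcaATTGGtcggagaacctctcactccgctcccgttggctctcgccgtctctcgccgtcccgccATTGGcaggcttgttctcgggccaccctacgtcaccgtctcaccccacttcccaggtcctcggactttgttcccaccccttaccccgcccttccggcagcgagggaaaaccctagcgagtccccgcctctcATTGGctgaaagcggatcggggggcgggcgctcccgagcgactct
A CCAAT box was in 12 of the 13 windows found for members that fell and in 15 of the 17 found for all tested members, against the 35.88% given above. The sterol element TCACNCCAC was in 1 of the 13, that of Hmgcs1, and in 1.05% of tested genes. No match says only that these letters are not in these 250 bases.

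Of 36 genes for fatty acid oxidation or driven by PPAR alpha, 23 were higher and 4 lower, with a median of 0.612 with cisplatin+PCN and 0.599 with cisplatin. Cyp4a14, a fatty acid hydroxylase induced by PPAR alpha, stood at 1575, 694 and 985 FPKM with cisplatin+PCN and 144, 47.3 and 36.7 FPKM in control (4.0 ± 0.49). Pdk4, which holds back pyruvate oxidation, stood at 257, 116 and 125 FPKM with cisplatin+PCN and 7.89, 5.2 and 6.94 FPKM in control (4.36 ± 0.43). In both genes replicate 1, the library nearest to control on the principal component, was the highest. The list's medians were 1.052, 0.436 and 0.520 in the cisplatin+PCN libraries, and 8 members were called lower without replicate 1. Fatty acid synthesis had 9 lower and 0 higher of 19, against 24.4% lower and 23.1% higher over all tested genes. Acss2, which makes cytosolic acetyl-CoA, was at -1.52 and Scd1, the stearoyl-CoA desaturase, at -1.44.

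Mitochondrial transcripts stayed low, to be read against 24.4% lower and 23.1% higher over all tested genes. Of 46 nuclear genes of oxidative phosphorylation 31 were lower and 0 higher, with a median of -0.314. Of the 31, 25 did not differ from cisplatin, against 75.6% of all called genes. Ndufs1, a core subunit of complex I, stood at 26.5, 18.6 and 21.2 FPKM with cisplatin+PCN and 40.8, 39.2 and 39.7 FPKM in control (-0.84 ± 0.10). Of 21 genes listed for the tricarboxylic acid cycle 16 were lower and 0 higher, with Sucla2 at -0.79 ± 0.11 and Idh2 at -0.76 ± 0.15. The list also holds Mdh1, the cytosolic malate dehydrogenase, at -0.92 ± 0.12. Of 13 genes on mitochondrial DNA 8 were lower and 0 higher, with a median of -0.872 with cisplatin+PCN and -1.063 with cisplatin, and 4 were lower with no expression limit. Reads of all genes that the deposited table places on mitochondrial DNA made up 7.81%, 6.34% and 6.86% of the cisplatin+PCN libraries. In the control libraries they made up 9.72%, 8.78% and 9.13%.

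Drug and oxidant response genes stayed high, to be read against 23.1% higher and 24.4% lower over all tested genes. Of 25 tested Nrf2 targets 21 were higher and 3 lower, and 5 of these 24 had moved back from cisplatin, against 22.6% of all called genes. Cbr3, a carbonyl reductase, stood at 63.9, 70.0 and 86.9 FPKM with cisplatin+PCN and 1.42, 1.95 and 1.95 FPKM in control (4.74 ± 0.24, adjusted p = 2.0e-07). Ephx1, the microsomal epoxide hydrolase, stood at 187, 229 and 227 FPKM with cisplatin+PCN and 33.9, 37.1 and 37.8 FPKM in control (2.53 ± 0.10). Hmox1, the heme oxygenase, stood at 34.4, 64.3 and 61.3 FPKM with cisplatin+PCN and 21.4, 14.2 and 15.5 FPKM in control (1.56 ± 0.25), and had moved back from cisplatin (2.46), a sorting lost in 11 alternatives. Genes known to be induced by PXR were tested in 25 of 44 cases, of which 15 were higher and 3 lower, with a median of 0.679 with cisplatin+PCN and 0.740 with cisplatin. With PCN alone that median was -0.044. Abcb1b, a drug efflux pump, stood at 10.3, 12.4 and 11.9 FPKM with cisplatin+PCN and 0.749, 1.56 and 1.32 FPKM in control (2.52 ± 0.13), and Aldh1a1, a retinal dehydrogenase, at 27.8, 32.4 and 40.9 FPKM with cisplatin+PCN and 1.39, 1.34 and 1.61 FPKM in control (3.81 ± 0.13). Nr1i2, which encodes PXR, stood at 4.89, 4.68 and 4.46 FPKM with cisplatin+PCN, 6.51, 4.83 and 4.47 FPKM with cisplatin and 2.07, 2.61 and 2.8 FPKM in control (0.70 ± 0.12, adjusted p = 0.000717). Cyp3a11 and Cyp2b10, the textbook hepatic targets, were under the expression limit. Several genes of this list are also known targets of other receptors.

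Glucocorticoid-responsive genes were higher in 15 of 18 cases and lower in 1, with a median of 1.565 with cisplatin+PCN and 1.979 with cisplatin. Besides Pdk4 and Cdkn1a, which the list also holds, these included Ddit4, an inhibitor of mTOR signalling, at 161, 112 and 88.5 FPKM with cisplatin+PCN and 14.1, 13.5 and 16.8 FPKM in control (2.91 ± 0.25). Mt1, a metallothionein whose reads may be shared within its family, stood at 603, 1087 and 893 FPKM with cisplatin+PCN and 84.4, 83.5 and 64.7 FPKM in control (3.43 ± 0.19). Among clock genes 5 of 17 were higher and 7 lower, against 23.1% and 24.4% of all tested genes, and 3 were higher without cisplatin+PCN replicate 3 or without control replicate 1 or 2. The output regulator Dbp stood at 7.4, 4.58 and 4.08 FPKM with cisplatin+PCN and 29.1, 32 and 31.5 FPKM in control (-2.36 ± 0.22), and its repressor Nfil3 at 15.5, 11.5 and 12.1 FPKM with cisplatin+PCN and 1.69, 0.974 and 1.46 FPKM in control (2.57 ± 0.32). The hour at which tissue was taken is not given in the labels.

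Inflammatory genes stayed high. Of 30 cytokine and NF-kB genes 20 were tested, with 15 higher and 0 lower. Of 28 acute-phase and complement genes 20 were tested, with 14 higher and 1 lower. Over all tested genes 23.1% were higher and 24.4% lower. Genes low in control passed the expression limit only where cisplatin+PCN was high. With no expression limit the cytokine list's median was 0.504, against 1.021 as reported. Fgg, Fga and Fgb, the fibrinogen chains, were higher by 6.19, 5.66 and 4.18, less than with cisplatin (7.08, 6.35 and 5.74) by limma's test. The difference from cisplatin was lost for Fga in 12 alternatives and for Fgg in 3. C3, the central complement component, stood at 167, 245 and 281 FPKM with cisplatin+PCN and 4.56, 4.34 and 3.06 FPKM in control (5.52 ± 0.21), and did not differ from cisplatin (5.65). Cxcl1, a neutrophil chemokine, stood at 5.71, 22.1 and 10.01 FPKM with cisplatin+PCN and 0.342, 0.702 and 0.191 FPKM in control (3.1 ± 0.34). Of 18 macrophage markers 12 were tested, with 2 higher and 1 lower, and 5 higher without cisplatin+PCN replicate 1 or 2 lower without its replicate 3. Csf1r, the receptor that macrophages depend on, was lower at 4.24, 4.38 and 4.54 FPKM with cisplatin+PCN and 8.51, 10.1 and 9.28 FPKM in control (-0.93 ± 0.09), while Cd14 (2.78) and Cd68 (1.71) were higher. Of 14 neutrophil genes 3 were tested and all 3 were called, Lcn2, which tubule cells also make, S100a8 and S100a9. S100a9 stood at 5.72, 14.1 and 1.82 FPKM with cisplatin+PCN and 1.33, 1.34 and 2.23 FPKM in control, with overlapping groups (adjusted p = 0.0358), and lost its call in 10 alternatives. S100a8 lost its call in 3, and without control replicate 2 or 3 Lcn2 alone of the list was called. Mpo, a defining neutrophil gene, was at 0 in all 6 libraries. Lymphocyte genes had 2 tested of 16, both lower. What these markers contribute to the inflammatory genes was not tested.

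The interferon-stimulated genes differed between libraries of the same group. In 23 of 24 tested members cisplatin+PCN replicate 3 was the highest of its group. The list's medians were -0.046, 0.111 and 0.773 in the cisplatin+PCN libraries and -0.508, 0.490 and 0.042 in the control libraries, so the groups overlapped. Isg15, a ubiquitin-like modifier, stood at 21.4, 20.3 and 52 FPKM with cisplatin+PCN and 8.13, 31 and 28.5 FPKM in control (adjusted p = 0.375). Irf7, a regulator of the response, stood at 26.9, 27.8 and 50.1 FPKM with cisplatin+PCN and 4.46, 28.5 and 11.6 FPKM in control, and its call (adjusted p = 0.026) was lost without that replicate (0.0949), without control replicate 1 (0.0758) or 3 (0.0614), in the fit of 6 libraries (0.0900) and with no filter (0.0610). Of the 24, 4 were called higher and 1 lower, against 23.1% and 24.4% of all tested genes. Leaving out control replicate 2 gave 10 higher and 0 lower, leaving out cisplatin+PCN replicate 1 gave 8 and 0, leaving out its replicate 3 gave 3 of each, and leaving out control replicate 1 gave 3 and 2. Weighting libraries by their spread gave 17 higher.

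**Figure D4:**
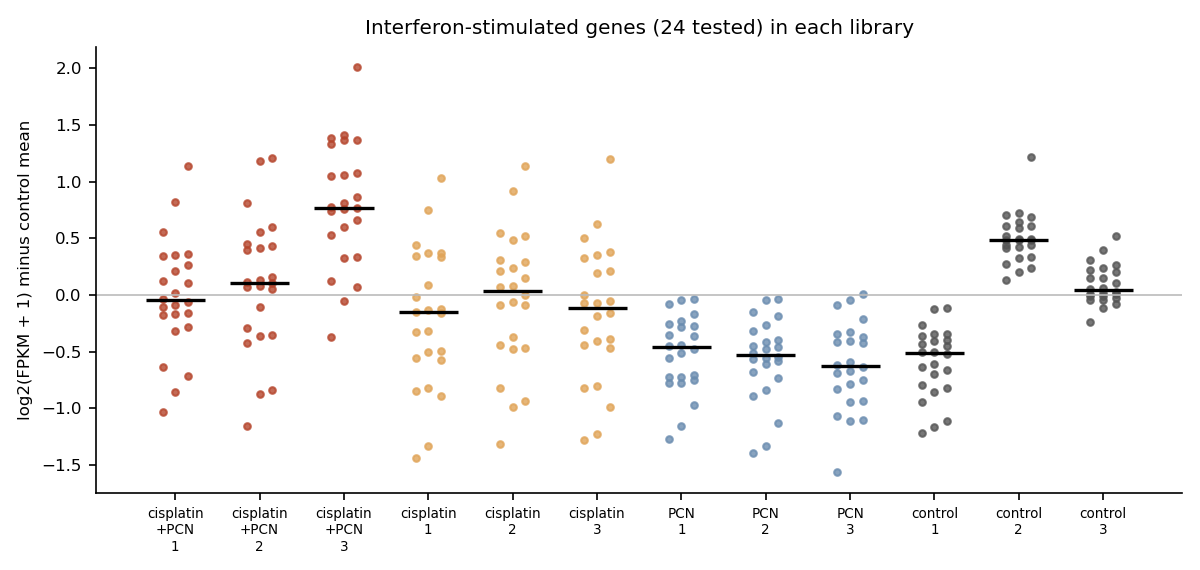
Each point is 1 of 24 tested interferon-stimulated genes in 1 of the 12 libraries, as log2(FPKM + 1) minus the gene's control mean, and black bars mark the library's median. The bar of cisplatin+PCN replicate 3 is at 0.773, while those of control replicates 1 and 2 are at -0.508 and 0.490.

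Erythroid transcripts were close to 0. Hbb-bs, an adult beta-globin gene, stood at 0, 0.0511 and 0.257 FPKM with cisplatin+PCN, 3.45, 0 and 0.335 FPKM with cisplatin and 663, 183 and 253 FPKM in control (-8.16 ± 0.54, adjusted p = 1.1e-06). All 6 tested erythroid genes were lower, against 24.4% of all tested genes. Hbb-bs passed the expression limit only through the control libraries, and of 248 such genes 225 were called lower. The 9 list members in the deposited table, 3 of them not tested, summed to between 3.15 and 4.68 FPKM in the cisplatin+PCN libraries. In the control libraries the sum of these 9 was between 331.0 and 1200.0 FPKM. Globin genes are near-identical copies that may share reads, and Slc4a1 also belongs to intercalated cells. How many red cells stayed in the tissue was not measured.

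Overshoot past control was called in 4 genes. The count was 0 without cisplatin+PCN replicate 3 or without any 1 control library, 7 without cisplatin+PCN replicate 2, 2 without cisplatin replicate 1 or 3, 22 without cisplatin replicate 2 and 82 with libraries weighted by their spread. Gas6 (ENSMUSG00000031451, chromosome 8, 13465374 to 13494490), a vitamin K-dependent ligand of the TAM receptor kinases, stood at 259.6, 195 and 229.8 FPKM with cisplatin+PCN, 124, 146 and 111 FPKM with cisplatin and 149.5, 170.2 and 148 FPKM in control. Against control it was 0.54 ± 0.12 with cisplatin+PCN (adjusted p = 0.00393) and -0.30 with cisplatin. All 3 cisplatin+PCN values were above all control values, which the rule for naming the gene required. All 3 cisplatin values were below all control values. The call against control held in all 25 alternatives, and the call of an overshoot was lost in 15 of the 24 that could give it. Slc5a1, the intestinal-type glucose transporter of the late proximal tubule, stood at 23.3, 25.8 and 26.1 FPKM with cisplatin+PCN and 21.5, 19.4 and 19.5 FPKM in control (0.30 ± 0.09, adjusted p = 0.0213, up to 0.0695 without single libraries). Shpk, sedoheptulokinase, stood at 10.2, 9.24 and 9.28 FPKM with cisplatin+PCN and 8.18, 7.95 and 8.34 FPKM in control (0.20 ± 0.07, adjusted p = 0.034, up to 0.101). Frzb, a secreted Wnt antagonist, was the 1 gene that overshot downward, at 5.94, 7.89 and 5.61 FPKM with cisplatin+PCN, 14.3, 10.1 and 11.1 FPKM with cisplatin and 9.33, 8.7 and 8.61 FPKM in control (-0.41 ± 0.13, adjusted p = 0.0215, up to 0.0835).

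More genes went farther from control than cisplatin took them, 19 of them higher and 5 lower. Slc38a3 (ENSMUSG00000010064, chromosome 9, 107650634 to 107669530), the glutamine transporter SNAT3 of the proximal tubule, stood at 77.5, 66.3 and 68.7 FPKM with cisplatin+PCN, 42, 45.1 and 44.1 FPKM with cisplatin and 10.3, 11.9 and 9.41 FPKM in control. The change was 2.64 ± 0.09 against control (adjusted p = 1.85e-08), and this sorting held in all 24 alternatives that could give it. Glud1, glutamate dehydrogenase, stood at 451, 341 and 387 FPKM with cisplatin+PCN, 316, 251 and 291 FPKM with cisplatin and 135, 139 and 126 FPKM in control (1.54 ± 0.11). Gldc, the glycine decarboxylase, stood at 274, 159 and 189.8 FPKM with cisplatin+PCN, 84.5, 116 and 107 FPKM with cisplatin and 46.3, 47.9 and 44.2 FPKM in control (2.11 ± 0.21). The sorting of Glud1 was lost in 4 alternatives and that of Gldc in 2. All 3 of these enzymes or carriers handle amino acid nitrogen, and they were put together after their values were seen. Maob, monoamine oxidase B, stood at 6.88, 4.73 and 6.02 FPKM with cisplatin+PCN and 1.88, 1.26 and 1.38 FPKM in control (1.45 ± 0.13). The largest change of this kind was that of Ugt1a2 (3.25), a glucuronosyltransferase that shares exons with Ugt1a1 (1.4), so reads of the pair may be shared. The sorting was lost in 4 alternatives for Ugt1a2 and in 6 for Ugt1a1. Downward, Gimap9, a GTPase of a family known from lymphocytes, stood at 5.14, 5.81 and 5.65 FPKM with cisplatin+PCN, 7.85, 7.78 and 7.71 FPKM with cisplatin and 11.2, 9.03 and 11.4 FPKM in control (-0.82 ± 0.09).

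The remaining 80 genes differed from control and from cisplatin, although cisplatin itself was not called, 51 higher and 29 lower. Pck1 (ENSMUSG00000027513, chromosome 2, 173153048 to 173159273), which commits carbon to gluconeogenesis, stood at 2278, 1550.5 and 1618 FPKM with cisplatin+PCN, 1117, 901 and 1334 FPKM with cisplatin and 975, 896 and 817 FPKM in control (1.0 ± 0.17, adjusted p = 0.000786). This sorting was lost in 9 alternatives. Adipocytes express Pck1 as well, and Adipoq, which defines them, stood at 2.25, 1.37 and 0.715 FPKM with cisplatin+PCN and 5.81, 1.68 and 1.46 FPKM in control. Rdh16, a retinol dehydrogenase, stood at 70.7, 46.3 and 49.2 FPKM with cisplatin+PCN, 32.4, 30.2 and 27.6 FPKM with cisplatin and 26.8, 30.4 and 28.7 FPKM in control (0.90 ± 0.14), and kept its sorting in all alternatives that could give it. Hacl1, a peroxisomal lyase of branched fatty acid breakdown, stood at 83.2, 25.7 and 31.4 FPKM with cisplatin+PCN, 13, 12.2 and 12.3 FPKM with cisplatin and 10.5, 10.8 and 8.34 FPKM in control (1.95 ± 0.32). Replicate 1 was far above the other cisplatin+PCN libraries for Hacl1, and without it the sorting was lost. The change of Hacl1 against control stayed between 1.44 and 2.27 without each library in turn or under the other settings. Slc13a1, the sulfate transporter of the proximal tubule brush border, stood at 91.2, 46.2 and 77.5 FPKM with cisplatin+PCN, 24.9, 39.6 and 16.2 FPKM with cisplatin and 24.2, 29.9 and 30.5 FPKM in control (1.27 ± 0.29, adjusted p = 0.00456). Its sorting was lost without cisplatin+PCN replicate 3.

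Among the lower genes of this kind, Fn1, which encodes the matrix protein fibronectin, stood at 1.44, 3.0 and 2.46 FPKM with cisplatin+PCN, 4.36, 4.28 and 3.91 FPKM with cisplatin and 4.29, 3.2 and 3.8 FPKM in control (-0.55 ± 0.15, adjusted p = 0.012; 0.0538 in a fit of the 6 libraries alone). Of the 23 tested matrix and fibroblast genes 11 were higher, only Fn1 was lower and 11 did not pass. Over all tested genes 23.1% were higher and 24.4% lower. The 11 higher members became 8 to 13 without single libraries and 18 with libraries weighted by their spread. The list's medians were -0.008, 0.624 and 0.492 in the cisplatin+PCN libraries. Timp1, an inhibitor of matrix proteases, stood at 2.96, 14.7 and 9.25 FPKM with cisplatin+PCN and 0.361, 0.148 and 0.101 FPKM in control (2.84 ± 0.43), and Lox, a collagen cross-linker, at 6.95, 5.99 and 3.92 FPKM with cisplatin+PCN and 1.01, 0.793 and 0.772 FPKM in control (1.81 ± 0.19). Mcm6, a subunit of the replicative helicase, stood at 3.56, 3.64 and 3.51 FPKM with cisplatin+PCN, 4.95, 4.5 and 5.58 FPKM with cisplatin and 6.09, 4.78 and 5.43 FPKM in control (-0.49 ± 0.09). In Fn1 and Mcm6 no cisplatin+PCN value reached the lowest control value, which the rule for naming them required. Of the 108 genes beyond the cisplatin level, 9 kept their sorting in every alternative that could give it, among them Slc38a3, Maob, Gimap9, Rdh16, Fhl3, Gdf11, Parp16 and Pitpnc1.

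**Figure D5:**
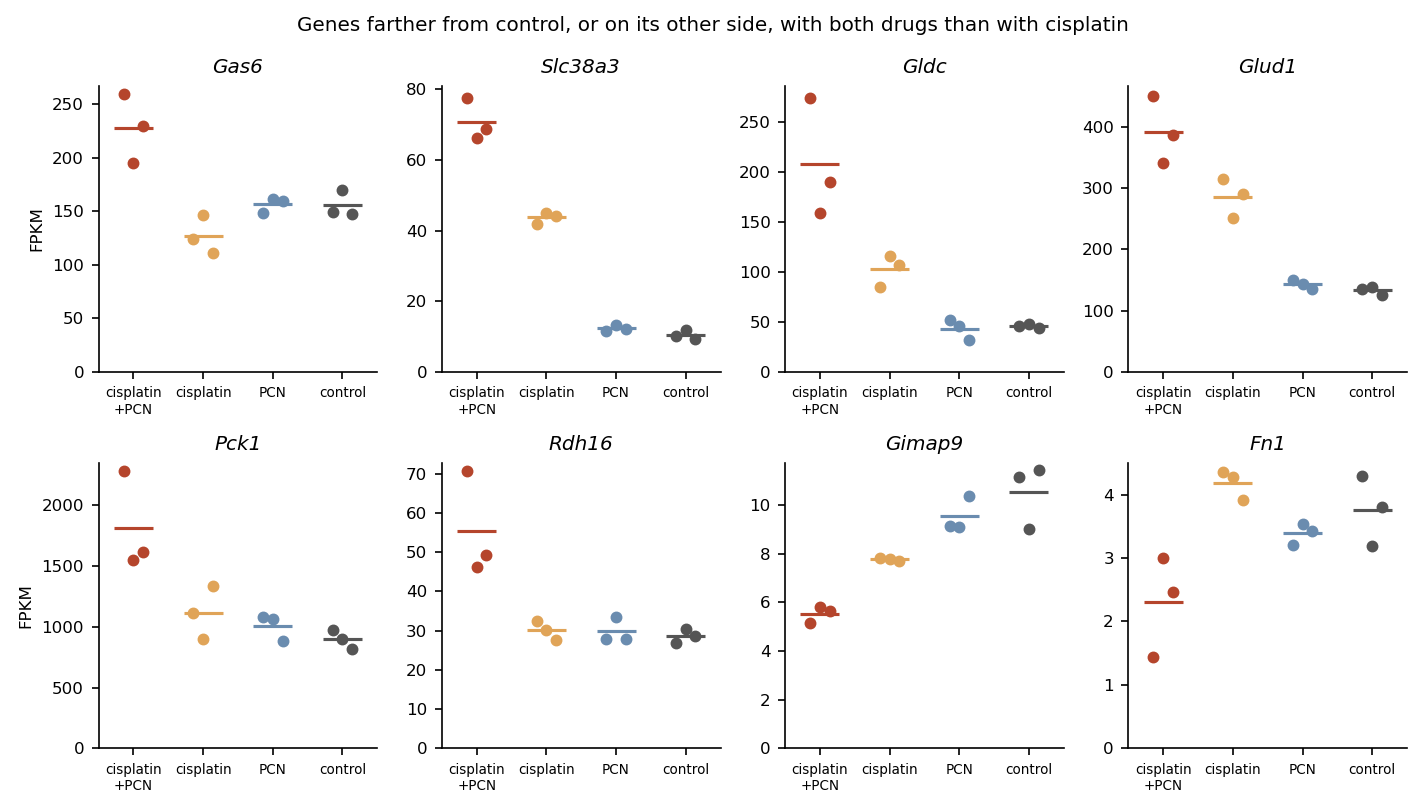
FPKM on a linear axis from 0 for 8 genes beyond the cisplatin level, with a point for each library and a line at each group's mean. For Gas6 the cisplatin+PCN points lie above control and the cisplatin points below it, and for Slc38a3, Gldc, Glud1, Pck1 and Rdh16 all 3 cisplatin+PCN points lie above all points of the other groups. All 8 genes were drawn from those whose cisplatin+PCN and control values do not overlap.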

How the data were processed

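Kidney RNA-seq libraries were read from a table of FPKM values that the authors deposited with gene names, coordinates and lengths. Per the submitters' processing notes, HISAT2 2.0.5, featureCounts 1.5.0-p3, DESeq2 1.16.1 and edgeR 3.18.1 were used, with no roles given. No source used here says whether counting used strand, and reads of overlapping or antisense genes and of close relatives may be shared. The label names build mm8, but 95.25% of 52489 gene IDs had the coordinates of GENCODE M21 (GRCm38), and coordinates are given as GRCm38.

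FPKM and gene length gave back whole reads (within 0.001) for 100.0% of values in each library, so precision follows a depth of 18914607 to 26530485 reads, at which 1 FPKM is 18.707 to 27.245 reads per kilobase. No 2 replicates differed by as little as sampling noise.

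Values were tested as log2(FPKM + 1) with limma 3.58.1 (R 4.3.3) with an intensity trend in 1 fit of 12 libraries and 4 group means, with Benjamini-Hochberg adjustment over 12808 genes and a threshold of 0.05. A fold change on this scale understates that of low genes. Errors are standard errors of the fit, with 3 libraries a group. The fit assumes 1 spread per gene in all groups, but the median within-group SD of log2(FPKM + 1) was 0.127 with cisplatin+PCN, 0.138 with cisplatin, 0.0736 with PCN and 0.0842 in control, so p-values of comparisons with cisplatin+PCN may be too small. The 6 libraries compared, fitted alone, gave 5591 genes differing. Read counts were used only in limma-voom, 1 of 25 alternatives, which also changed pseudocount, filter, scaling, weights, block and left-out libraries. Promoter windows are RefSeq's.

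The members, the 40 gene lists and the rules were chosen with earlier results of these data known, and no list was tested as a set. Named genes were the 10 largest rises and falls among called protein-coding genes without overlap, the 10 of these not shifted from cisplatin, 8 per direction beyond cisplatin, up to 3 per list, and a short panel. Calr, Hsp90b1, Mvd, Sox9, Clu, Vim, Tmsb10, Isg15, Limk1, Unc45b, Tacc3, Syn2 and the genes of the closing observations not given earlier were named after their values were seen. Cyp3a11 and Cyp2b10 were below the expression limit. A few genes that the rule selects are not reported here.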

Additional observations from a re-analysis of the deposited data

How the results depend on the processing

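Leaving out 1 library at a time, of all 12, gave 5090 to 6514 genes differing from control, 2491 to 3189 higher and 2599 to 3325 lower. In the same fits 387 to 2099 genes had moved back from cisplatin, 3622 to 5759 had not shifted, 0 to 22 overshot control, 8 to 37 lay farther out than cisplatin, 23 to 124 differed where cisplatin did not, and 120 to 954 were back within the test. The lowest count of genes that had moved back came without cisplatin+PCN replicate 3 and the highest without cisplatin replicate 2. Weighting libraries by their spread gave 3789 moved back, 82 overshooting, 204 farther out, 699 differing where cisplatin did not and 1507 back within the test. A mean of at least 5 FPKM, which tests fewer genes, gave 3965 differing, 1910 higher, 2055 lower and 2756 not shifted. With no filter 703 had moved back, 49 differed where cisplatin did not and 299 were back within the test. Quantile normalization gave 7 overshooting. The causes of the other moves were not tested. The change of Umod, 0.02 as reported, was -0.17 with weights, -0.23 with quantile normalization, and between -0.10 and 0.0911 without single libraries, and it was called in none of these. Replicate numbers did not pair the libraries (correlations of deviations -0.123, -0.115 and -0.064). With a replicate block 5860 genes differed, 97.99% of them also called without it in the same direction. Scaling to total reads was added after the data were seen. Of the single-gene values, 3728 kept their direction and side of the threshold over all alternatives, 90 lost the call and 4 turned.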

Other observations

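Cytosolic ribosomal protein genes stayed slightly high, where 23.1% of all tested genes were higher and 24.4% lower. Of 76 tested genes named Rpl or Rps, 61 were higher after cisplatin+PCN and 2 lower, with a median of 0.310 (log2) against 0.557 with cisplatin alone and -0.006 over all tested genes. Of the 63 called, 43 had moved back from the cisplatin level and 20 had not. Mitochondrial ribosomal proteins went the other way, with 32 of 77 lower and 6 higher. Among 770 tested transcription factors 173 were higher and 150 lower (41.95% called, against 47.49% of all tested genes), and of 36 in the bZIP family 18 were higher and 7 lower (69.44%). Egr1, an immediate early zinc finger factor, stood at 10.4, 24.8 and 10.3 FPKM with cisplatin+PCN and 1.65, 1.12 and 1.1 FPKM in control (2.71 ± 0.27). Fos, a subunit of AP-1, stood at 4.84, 9.54 and 4.3 FPKM with cisplatin+PCN and 0.318, 0.168 and 0.247 FPKM in control (2.47 ± 0.23). Bcl6, a repressor, was lower at 1.42, 2.88 and 1.87 FPKM with cisplatin+PCN and 10.6, 11.7 and 16 FPKM in control (-2.18 ± 0.51).

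The lists below are to be read against all tested genes, of which 23.1% were higher and 24.4% lower. Of 19 integrated stress response genes 10 were higher and 1 lower, with Psat1, an enzyme of serine synthesis, at 2.1 ± 0.13 and Atf3, a stress factor, at 1.88 ± 0.22. Of 23 cell death genes 14 were higher and 2 lower. Acsl4, which makes lipids prone to ferroptosis, stood at 55, 53.3 and 48 FPKM with cisplatin+PCN and 10.8, 10.7 and 10.5 FPKM in control (2.18 ± 0.10), and Mlkl, the executor of necroptosis, at 1.61, 4.18 and 3.74 FPKM with cisplatin+PCN and 0.882, 0.952 and 0.796 FPKM in control (1.09 ± 0.23). Of 19 EGF and TGF-beta pathway genes 12 were higher and 2 lower, with Inhbb, an activin subunit, at 2.18 ± 0.17. Of 19 antioxidant genes 5 were higher and 7 lower, against 23.1% and 24.4% of all tested genes, and mitochondrial Sod2 stood at 67.5, 50.8 and 57.8 FPKM with cisplatin+PCN and 104, 103 and 103 FPKM in control (-0.82 ± 0.09). Glycolysis had 6 of 16 higher and 3 lower, with the lactate carrier Slc16a1 at 2.35 ± 0.12. Markers of liver had 3 higher and 3 lower of 8 tested. Of 8 adipocyte markers Pck1 was higher and Car3 lower, at 1.87, 4.09 and 2.74 FPKM with cisplatin+PCN and 53.7, 18.7 and 19.1 FPKM in control.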
